A study of Mus musculus with 32 samples.

Results

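RNA levels of 46 genes for Wnt ligands, R-spondins, secreted Wnt antagonists and Wnt receptors were followed while mouse embryonic stem cells differentiated with or without bisphenols. The genes were taken by symbol from a fixed list of 19 Wnt ligands, 4 R-spondins, 10 antagonists and 13 receptors that uses gene function and no measured value in its rule, but was drawn up with earlier results of these data known. All 46 were found among the 20612 genes listed in at least 1 library. The cells were J1 embryonic stem cells (ESCs) of strain 129S4/SvJae and their derivatives. Cultures received 1 of 3 bisphenols at 100 nM, namely bisphenol A (BPA), its analog bisphenol F (BPF) or the sulfone bisphenol S (BPS). Control cultures received the solvent dimethyl sulfoxide (DMSO). The phenol rings are bridged by a carbon with methyl groups in BPA, by a methylene group in BPF and by a sulfonyl group in BPS. The 8 stages were ESCs (day 0), embryoid bodies (EBs, suspended aggregates) at days 4, 6, 9, 12 and 20 of global differentiation, retinoic acid-treated EBs at day 8 (RA EBs) and neural progenitor cultures at day 10 (NPCs). The RA EBs had received retinoic acid for 4 days. Each of the 8 stages had 4 libraries, 1 per treatment, which made 32 libraries from 1 cell line.

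Wnt proteins are secreted, lipid-modified signals that bind Frizzled receptors. In the canonical branch of the pathway the receptors and their LRP co-receptors stabilise beta-catenin, which acts with TCF and LEF factors on target genes, while other branches act on cell polarity and movement. R-spondins bind the receptors LGR4, LGR5 and LGR6 and prolong the life of Frizzled at the cell surface. The SFRP family, including FRZB, and WIF1 bind Wnt proteins, and Dickkopf proteins such as DKK1 bind the LRP co-receptors. In the embryo, Wnt signals are known for their part in the primitive streak, the dorsal neural tube, the midbrain and the cortical hem.

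Levels are in FPKM, the authors' length- and depth-scaled fragment counts, which can be compared between genes, and a gene that a library does not list is given as 0. Values of single libraries are given in the order DMSO, BPA, BPF and BPS, and stage means are of 4 libraries with SD. A log2 change is an edgeR estimate with its SE, and adjusted p is from the edgeR quasi-likelihood test with Benjamini-Hochberg adjustment over the 15632 genes tested. Stages were called different at an adjusted p under 0.05 and an absolute log2 change of at least 1, and treatments at an adjusted p under 0.05. Of the 46 genes, 42 were tested and 4 (Wnt10a, Wnt16, Dkk4 and Lgr6) did not reach the count minimum. No treatment was repeated within a stage and the labels name no separate cultures, so a p-value reflects only how these samples spread. For the same reason a treatment and its culture cannot be told apart. In bulk RNA, fewer cells of a type and less RNA per cell cannot be told apart either.

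Total expected counts per library were between 9574833 and 11070149. The labels were compared with marker genes: the summed level of 6 pluripotency genes was 2352 to 2479 FPKM in ESCs and 11.2 to 15.3 FPKM in NPCs. That of 6 neuronal genes was 1979 to 2154 FPKM in NPCs and 201 to 216 in ESCs, where Stmn2 alone was at 162 to 181. That of 6 neural progenitor genes was 379 to 445 FPKM in NPCs, below the 491 to 763 of EB day 12. The cultures labelled NPCs were thus rich in neuronal RNA. At EB day 12 the DMSO library stood apart from the other libraries of its stage. Its correlation with them over 15632 genes (log2 CPM) was 0.964 to 0.978, against 0.988 to 0.993 among the bisphenol libraries. At EB day 20 these ranges were 0.968 to 0.976 and 0.989 to 0.993, and in ESCs the DMSO library correlated with the others at 0.996 to 0.997.

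As a class, the genes were low in ESCs and EBs of day 4 and high in EBs of days 6 to 12. Their summed level was 137 ± 2.63 FPKM in ESCs, 145 ± 2.58 at EB day 4, 368 ± 27.9 at day 6 and 389.5 ± 36.5 at day 9. It was 357 ± 24.7 at day 12, 276 ± 18.05 at day 20, 321 ± 32.5 in RA EBs and 230.2 ± 7.24 in NPCs. Ligands contributed 5.49 to 6.48 FPKM in ESCs and 75.0 to 140.9 at EB day 9. Of the 46 genes, 39 reached a stage mean of 1 FPKM or more and 19 reached 10. The highest stage mean fell at EB day 9 in 10 genes, at EB days 6 and 20 in 8 each, at EB day 12 in 6 and in RA EBs in 5. It fell in ESCs in 4 genes, in NPCs in 3 and at EB day 4 in 2. In 33 of the 46 genes the libraries of the highest stage overlapped those of the second-highest, so the exact stage of the peak was not resolved for them.

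**Figure D1:**
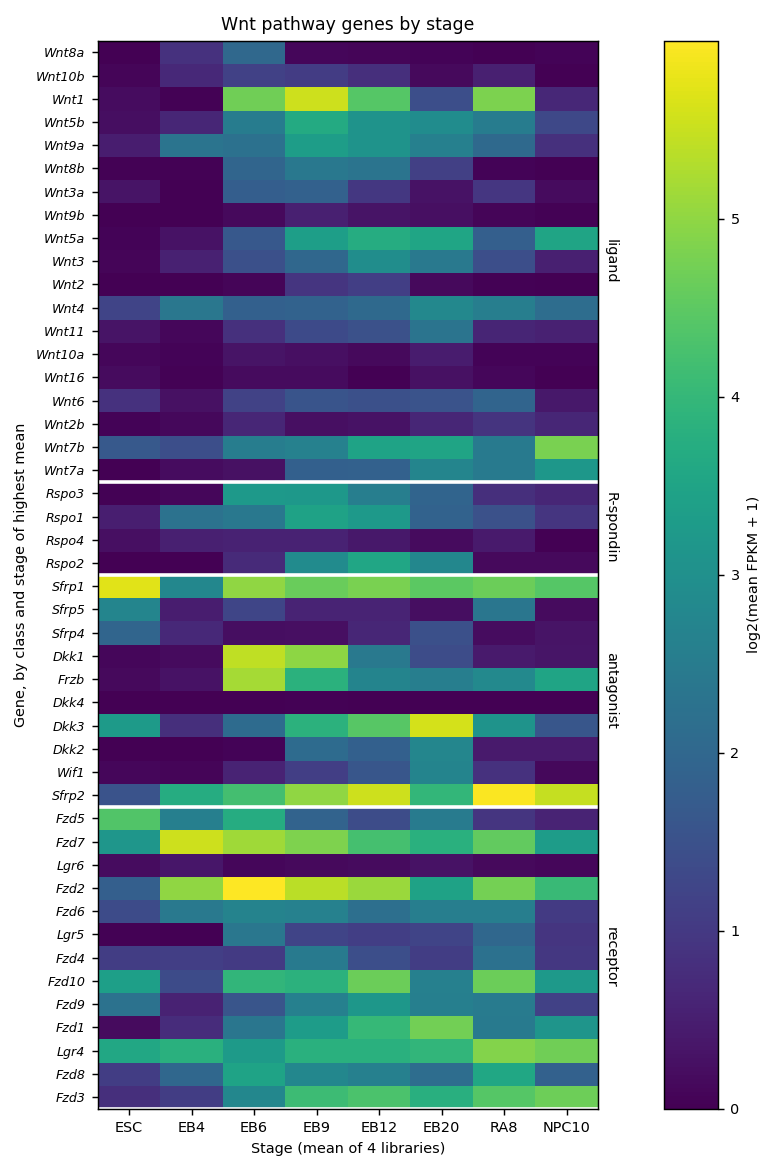
Stage means of the 46 genes as log2(FPKM + 1), with genes in rows by class and stages in columns, from 4 libraries each. Most values are low in ESCs and EB day 4, and antagonists Sfrp1, Sfrp4 and Sfrp5 and receptor Fzd5 have their highest mean in ESCs.

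Among the ligands, Wnt1, a signal of the dorsal midbrain, had the highest level. It was measured at 0, 0, 0 and 0.12 FPKM at EB day 4, 40.6, 22.2, 16.9 and 20.1 at day 6 and 64.3, 53.9, 31.98 and 30.7 at day 9. At day 12 it was at 27.4, 19.6, 19.8 and 14.4 and at day 20 at 0.7, 1.25, 2.73 and 2.11. All 4 libraries of EB day 9 lay above all 4 of days 4, 12 and 20, and the DMSO library was the highest at days 6, 9 and 12. Wnt1 was also high in RA EBs (32.1, 24.9, 29.4 and 22.1 FPKM) and at 0.55 to 0.71 FPKM in NPCs.

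Wnt7b and Wnt7a, ligands of the developing forebrain, had their highest means in NPCs. Wnt7b was at 21.01, 32.8, 28.4 and 25.3 FPKM there and at 5.82, 3.85, 4.15 and 4.44 in RA EBs, so the NPC libraries lay above every other library. Wnt7a was at 5.60, 8.38, 9.66 and 8.27 FPKM in NPCs and 7.30, 5.53, 4.72 and 5.17 at EB day 20, and these groups overlapped.

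Wnt5a and Wnt5b, ligands best known for branches that do not use beta-catenin, were highest in later EBs. The Wnt5a level was 10.7, 8.82, 9.16 and 8.31 FPKM at EB day 9, 9.91, 13.2, 12.7 and 12.4 at day 12 and 6.17, 11.8, 12.6 and 11.7 at day 20. In NPCs it was 9.39, 10.3, 10.8 and 10.7, within the range of the EB libraries. For Wnt5b the values were 11.1, 13.9, 12.9 and 9.05 at day 9 and 5.82, 9.59, 8.03 and 6.66 at day 12, which overlapped, and 2.12, 8.48, 7.46 and 8.23 at day 20, where the DMSO library alone was low.

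Wnt9a had 11.6, 10.4, 7.17 and 7.01 FPKM at EB day 9 and 5.81, 8.85, 8.74 and 6.29 at day 12. These groups overlapped. Wnt3, a ligand of the primitive streak, had 11.1, 5.39, 4.80 and 5.67 FPKM at EB day 12 and 6.07, 3.51, 3.98 and 3.86 at day 20, with DMSO highest at both. Wnt3 and Wnt9b overlap by 1098 bases in the annotation, so reads there could be assigned to either gene. Wnt4 had 3.53, 6.31, 7.39 and 6.85 FPKM at EB day 20 and 5.79, 5.35, 4.39 and 4.31 in RA EBs, and the groups overlapped.

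The other 11 ligands were lower. Wnt8b peaked at 4.26 ± 4.65 FPKM at EB day 9, Wnt11 at 3.99 ± 1.27 at day 20, Wnt8a at 3.06 ± 0.797 at day 6 and Wnt6 at 2.81 ± 0.44 in RA EBs. Wnt8a stood out by its narrow window, with 0.70 to 0.91 FPKM at EB day 4, 1.97 to 3.81 at day 6 and 0 in every RA EB library. Wnt3a peaked at 2.63 ± 1.68, Wnt10b at 1.25 ± 0.481 and Wnt2 at 1.16 ± 0.877 FPKM. Wnt2b, Wnt9b, Wnt10a and Wnt16 stayed under 1 FPKM in every stage mean.

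R-spondins had their highest stage means in EBs of days 6 to 12. Rspo1 was at 3, 2.75, 4.99 and 4.59 FPKM at EB day 4, 20.7, 7.78, 5.83 and 5.87 at day 9 and 15.3, 6.13, 6.55 and 6.15 at day 12. Rspo2 was at 0.83, 0.76, 0.46 and 0.49 at day 6, 15.3, 4.04, 3.15 and 3.25 at day 9 and 16.1, 10.6, 9.06 and 6.72 at day 12. In both genes the DMSO library was above every bisphenol library at days 9 and 12. Their summed level with Rspo3 and Rspo4 was 2.56 to 3.43 FPKM in RA EBs and 1.08 to 2.01 in NPCs. Rspo4 had no stage mean over 0.495 FPKM.

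Of the antagonists, Sfrp2 reached 75.1, 51.8, 65.1 and 53.03 FPKM in RA EBs and 61.8, 39.7, 41.1 and 39.9 at EB day 12, and both groups overlapped. Sfrp1 was at 49.2, 52.3, 52.5 and 53.9 FPKM in ESCs and 5.77, 5.48, 5.51 and 6.65 at EB day 4, and at 22.4, 27.1, 36.5 and 37.6 at day 6. No library outside ESCs came up to the ESC level of Sfrp1. Dkk3, a divergent Dickkopf protein, was at 44.5, 49.8, 48.8 and 48.02 FPKM at EB day 20 and 12.9, 25.4, 24.8 and 20.2 at day 12, with no overlap.

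Dkk1, an LRP-binding inhibitor made in the anterior embryo, was at 0.3, 0.04, 0.14 and 0.04 FPKM at EB day 4 and 20.4, 39.5, 53.6 and 55.6 at day 6. It was at 16.4, 35.6, 37.3 and 32.96 at day 9 and 0.83, 5.48, 6.63 and 4.45 at day 12. Within days 6, 9 and 12 the DMSO library was the lowest of the 4. Frzb was at 33.5, 35.3, 35.9 and 37.5 FPKM at EB day 6 and 12.2, 11.7, 15.1 and 13.6 at day 9, with treatments close together. Dkk2 (5.76 ± 3.28 FPKM) and Wif1 (5.53 ± 2.08) peaked at EB day 20, Sfrp5 (5.60 ± 0.537) and Sfrp4 (2.86 ± 0.5) in ESCs, and Dkk4 was listed in 1 library only, at 0.07 FPKM.

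Receptor levels summed to 57.8 to 61.0 FPKM in ESCs, below the 70.2 to 72.8 FPKM of antagonists, and to 142.3 to 185.8 at EB day 6, where antagonists were at 103.9 to 153.1. Fzd2 was at 2.03, 2.60, 2.48 and 2.91 FPKM in ESCs, 30.6, 31.3, 30.1 and 33.3 at EB day 4 and 59.9, 61.5, 71.1 and 59.4 at day 6. Fzd7, a Frizzled known from stem cells, was at 7.83, 7.75, 7.73 and 8.01 in ESCs and 42.8, 46, 44.8 and 47.6 at EB day 4. In both genes the stages named did not overlap.

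Lgr4, an R-spondin receptor, was at 31.8, 27.3, 26.4 and 28.96 FPKM in RA EBs and 26.8, 24.4, 24.2 and 24.2 in NPCs, and between 8.39 and 15.8 FPKM in all other libraries. Fzd1 was at 32.03, 24.6, 21.6 and 22.6 FPKM at EB day 20 and 13.7, 14.5, 16.2 and 15.98 at day 12. Fzd3, which acts in axon guidance and polarity, was at 24.2, 25.04, 24.6 and 24.1 FPKM in NPCs and 21.3, 18.9, 21.1 and 19.7 in RA EBs, without overlap. Fzd10 had nearly equal means at EB day 12 (24.1 ± 7.49) and in RA EBs (24.1 ± 2.37). Fzd5 was highest in ESCs (19.6 ± 0.881), Fzd8 in RA EBs (10.8 ± 1.43) and Fzd9 at EB day 12 (8 ± 3.02). Fzd6, Fzd4 and Lgr5 peaked between 4.22 and 5.46 FPKM, and Lgr6 at 0.285 FPKM.

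**Figure D2:**
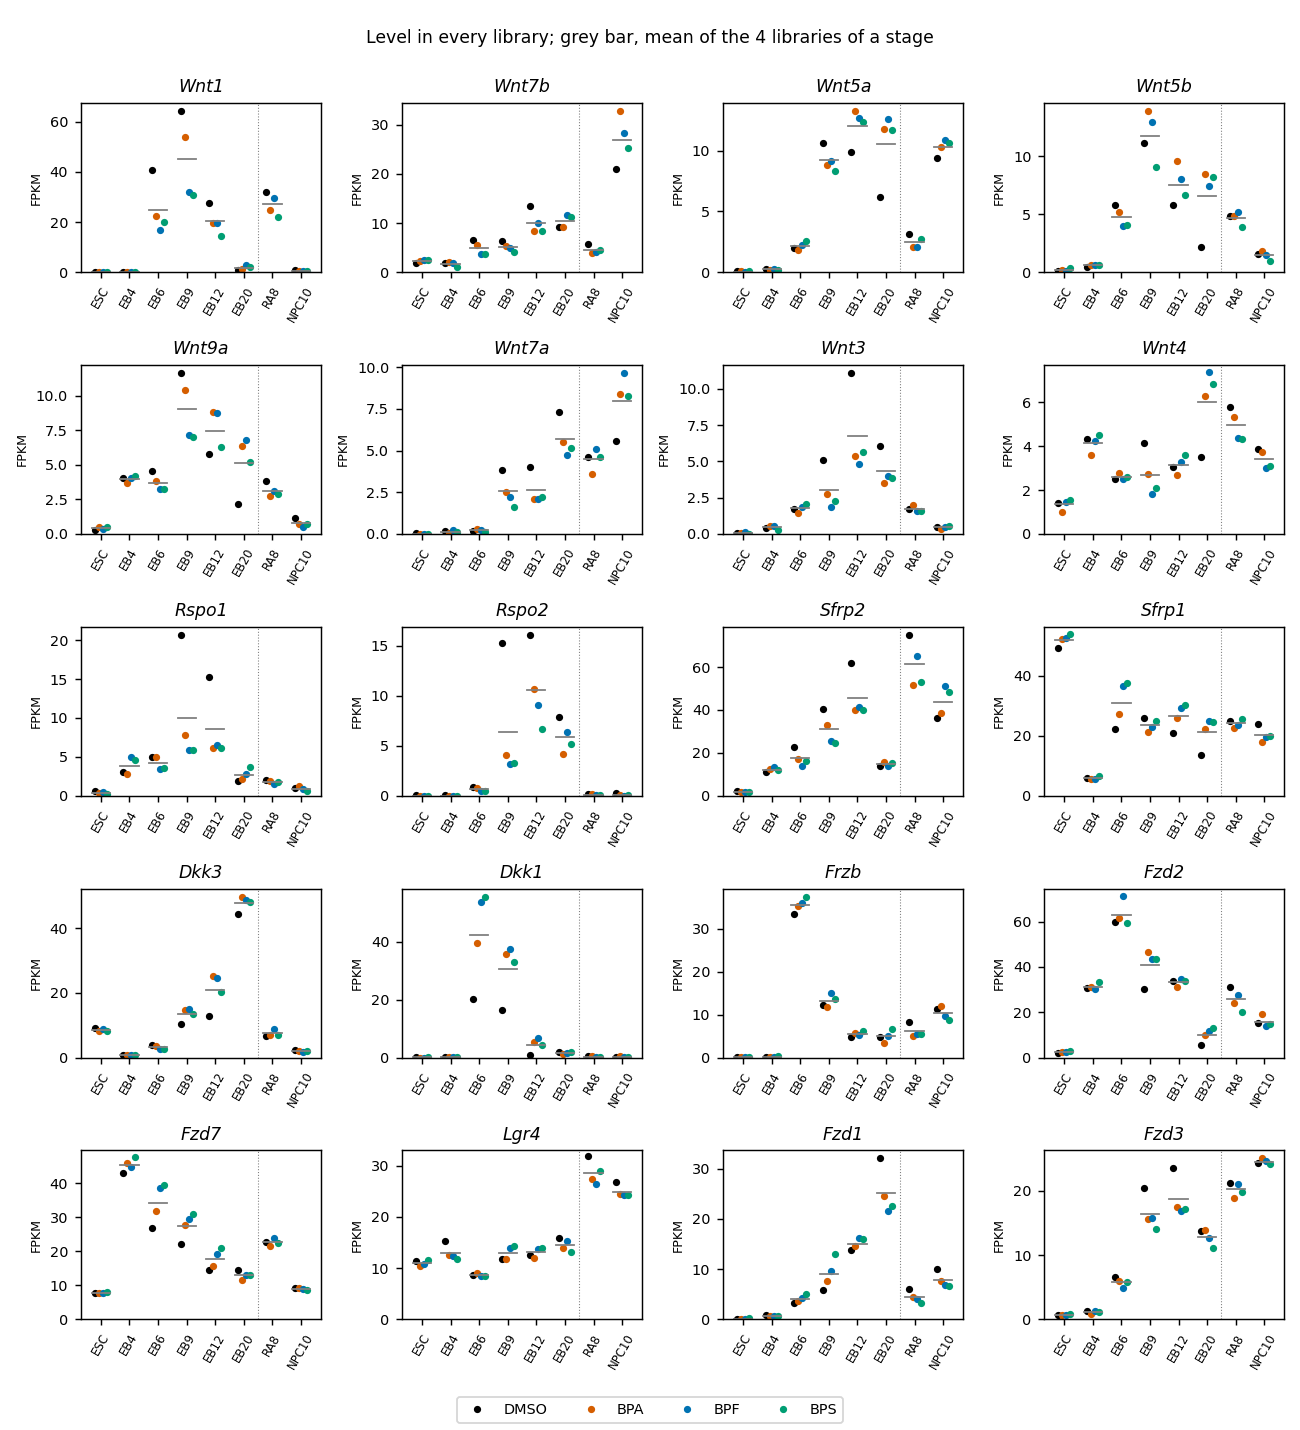
FPKM of 20 genes (8 ligands, 2 R-spondins, 5 antagonists and 5 receptors with the highest stage means) in each of the 32 libraries by stage, coloured by treatment, with grey bars for stage means. Black DMSO points lie above the others for Rspo1 and Rspo2 at EB days 9 and 12 and below them for Dkk1 at EB days 6 to 12, while ESC points nearly coincide.

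Correlation across libraries described which of the tested genes had the most alike courses (Pearson r of log2(FPKM + 1), 32 libraries that share stages and treatments, so a description only). Wnt5a was most like Fzd1 (r = 0.925), Wnt3 most like Rspo2 (0.904) and Wnt11 most like Wif1 (0.904). Wnt9a was most like Rspo1 (0.883) and Wnt8b most like Rspo3 (0.857).

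Some ligand genes lie side by side in the genome (GRCm38). Wnt10b (chromosome 15, 98770712 to 98778206) and Wnt1 (98789857 to 98793830) are 11650 bases apart, and their peaks were 1.25 and 45.2 FPKM. Wnt3a (chromosome 11, 59248036 to 59290751) and Wnt9a (59306849 to 59333552) are 16097 bases apart, and both peaked at EB day 9, at 2.63 and 9.06 FPKM. Of the genes described with bisphenols, Rspo3 is annotated (Entrez gene 72780) on chromosome 10 at 29453106 to 29535867, Fzd6 (Entrez gene 14368) on chromosome 15 at 39006149 to 39038192 and Lgr5 (Entrez gene 14160) on chromosome 10 at 115450314 to 115587780. Correlation between neighbours was 0.735 for Wnt9b with Wnt3, whose annotated spans overlap by 1098 bases, 0.681 for Wnt10b with Wnt1, 0.506 for Wnt3a with Wnt9a and 0.36 for Wnt6 with Wnt10a over 32 libraries.

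Promoters of the genes were searched for the TCF/LEF word CTTTGAA or CTTTGAT on either strand, since members of the pathway can be its targets. RefSeq promoters of GRCm38.p6 were matched for 31 of the 46 genes (34 promoters). In the 250 bases before the start, 3 of the 34 (8.8%) held a word, against 7.5% of all 32851 promoters, so the share was near the background. The 3 are printed 5′ to 3′ on the strand of the gene with the word in capitals, because Dkk1, Wnt11 and Wnt5b were each called in several comparisons. The word began 117 bases before the start in Dkk1 (chr19:30549497-30549746, minus strand), 51 in Wnt11 (chr7:98834862-98835111, plus strand) and 71 in Wnt5b (chr6:119449387-119449636, minus strand). In Wnt11 the capitals are the word's reverse complement.
Dkk1: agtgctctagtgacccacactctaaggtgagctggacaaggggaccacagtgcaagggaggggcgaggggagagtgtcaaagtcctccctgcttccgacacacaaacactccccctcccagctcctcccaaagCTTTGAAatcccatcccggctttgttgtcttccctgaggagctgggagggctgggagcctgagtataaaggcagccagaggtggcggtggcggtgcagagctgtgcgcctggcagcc
Wnt11: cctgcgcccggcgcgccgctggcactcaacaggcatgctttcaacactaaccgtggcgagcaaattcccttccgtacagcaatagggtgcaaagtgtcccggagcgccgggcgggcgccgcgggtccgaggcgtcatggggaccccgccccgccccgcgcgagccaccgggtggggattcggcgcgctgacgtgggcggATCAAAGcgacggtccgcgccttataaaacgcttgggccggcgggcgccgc
Wnt5b: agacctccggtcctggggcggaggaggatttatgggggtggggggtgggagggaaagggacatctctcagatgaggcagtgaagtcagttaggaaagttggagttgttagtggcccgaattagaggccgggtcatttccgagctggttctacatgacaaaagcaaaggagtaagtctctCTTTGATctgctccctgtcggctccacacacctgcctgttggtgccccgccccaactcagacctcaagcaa

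In the first step, from ESCs to EBs of day 4, levels of receptors and antagonists moved in both directions. Of the 42 genes tested, 16 were higher and 10 lower at EB day 4, against 14.3% and 13.4% of all genes. Their median log2 change was 0.60, against 0.00 over all genes. Receptors Fzd2 (3.65 ± 0.18, adjusted p = 4.5e-16), Fzd7 (2.54) and Fzd6 (1.46) rose, while Fzd9 (-2.85), Fzd10 (-2.52) and Fzd5 (-1.94) fell. Antagonists Sfrp5 (-3.68 ± 0.34, adjusted p = 3.5e-10), Dkk3 (-3.48) and Sfrp1 (-3.13) fell, and Sfrp2 rose by 2.68. Of the ligands, 8 rose and 3 fell, with Wnt9a (3.28 ± 0.31) and Wnt4 (1.61) the risers over 1 FPKM. Rspo1 rose by 3.15 ± 0.41 (adjusted p = 1.3e-07).

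From EB day 4 to day 6, nearly all changes were rises. Of 42 genes, 28 were higher and 1 lower, against 10.5% and 8.55% of all genes, and the median log2 change was 1.86, against 0.00. All 13 ligands called were higher. Wnt1 rose 813-fold (95% counting interval 277.9 to 3945) from 3 or fewer counts in the 4 libraries of day 4, and Wnt3a rose 284-fold (50.6 to 11260). Wnt8b, a ligand of the cortical hem and hypothalamus, rose by 5.53 ± 0.52 on the log2 scale (adjusted p = 7.8e-10). Rspo3 rose by 6.45 ± 0.56 (adjusted p = 2.1e-10). Antagonists Dkk1 (7.87 ± 0.43, adjusted p = 2.1e-14), Frzb (7.04) and Sfrp1 (2.34) rose, as did receptors Fzd10 (3.07) and Fzd1 (2.52). Lgr5, a receptor for R-spondins and itself a Wnt target, rose 291-fold (94.0 to 1339). This fold pools the treatments, and most of the rise was in bisphenol libraries. At day 6 Lgr5 was at 0.56 FPKM in DMSO and at up to 6.33 with bisphenols. Without the DMSO libraries the change of Dkk1 was 8.74 and that of Wnt8b 4.73, and without the BPS libraries the fitted log2 change of Wnt1 was 9.37, against 8.43 with them.

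From EB day 6 to day 9, 15 genes were higher and 6 lower, against 10.5% and 3.86% of all genes, with a median log2 change of 0.44 (0.03 over all genes). Ligands Wnt7a (3.31 ± 0.30, adjusted p = 9.7e-10), Wnt5a (2.08) and Wnt5b (1.24) rose, and Wnt8a fell by 4.51 ± 0.47 to 0 to 0.18 FPKM (log2 change -5.11 without the DMSO libraries). Rspo2 rose by 3.01 ± 0.28 and Rspo1 by 1.06 ± 0.30. The rise of Rspo1 rested on DMSO: without the DMSO libraries it was 0.61 and did not reach the fold threshold. Antagonists Dkk2 (5.52), Dkk3 (1.94) and Wif1 (1.08) rose, and Frzb (-1.50) and Sfrp5 (-1.41) fell. Receptors Fzd4 (1.99), Fzd3 (1.42) and Fzd9 (1.25) rose, and Fzd5 (-2.13) and Lgr5 (-1.68) fell. At day 6 both falling receptors were lowest in DMSO. Lgr5 was at 0.56 FPKM there and at up to 6.33 with bisphenols, and Fzd5 at 3.42 and up to 18.75. Their falls were not tested in DMSO alone. Wif1 did not pass without BPA (adjusted p = 0.12) or BPF (0.054).

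From EB day 9 to day 12 fewer of the genes were called than in any other stage step. Of the 42 tested, 2 were higher and 5 lower, against 7.33% and 2.26% of all genes, with medians of -0.13 and -0.01. The share that fell was thus above that of all genes, and the share that rose was below it. Wnt3 rose by 1.13 ± 0.23 (adjusted p = 0.00028), and Wnt3a (-1.40) and Wnt1 (-1.17) fell. Dkk1 (-2.89 ± 0.28, adjusted p = 3.2e-09), Frzb (-1.29) and Fzd4 (-1.42) fell.

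From EB day 12 to day 20, 8 genes were higher and 11 lower, against 17.4% and 8.62% of all genes, and the median log2 change was -0.49, against 0.00. Ligands Wnt1 (-3.60 ± 0.27, adjusted p = 3.5e-12), Wnt2 (-2.80) and Wnt8b (-1.75) fell. The fall of Wnt2 was in bisphenol libraries only, as its DMSO library was at 0 on both days. Wnt11 (1.09) and Wnt7a (1.02) rose. Both rises were near the fold threshold: Wnt11 was at 0.86 without DMSO, and Wnt7a at 0.92 without BPA and 0.98 without BPS. Rspo1 fell by 1.66 ± 0.31. Antagonists Sfrp2 (-1.72) and Dkk1 (-1.42) fell, and Sfrp4 (1.43), Wif1 (1.34) and Dkk3 (1.11, and 0.93 without DMSO) rose. Of the receptors, Fzd10 (-2.30) and Fzd2 (-1.85) fell and Fzd5 rose by 1.42.

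On the neural branch, 27 genes were higher and 5 lower in RA EBs than in EBs of day 4, against 18.8% and 15.5% of all genes, with a median log2 change of 1.94 (0.03 over all genes). Wnt1 was 882-fold higher (counting interval 301.6 to 4282), Wnt7a rose by 4.62 ± 0.32 and Wnt6 by 3.47 ± 0.46. Rspo1 fell by 1.19 ± 0.33 (adjusted p = 0.0023), and without BPF the change was -0.98, short of the fold threshold. Frzb (4.43), Dkk3 (3.18) and Sfrp5 (3.12) rose. Receptors Fzd3 (4.07 ± 0.12, adjusted p = 8.4e-21) and Fzd10 (3.78) rose, Lgr5 was 206-fold higher (66.4 to 947.5, from 3 or fewer counts at EB day 4), and Fzd5 (-2.60) and Fzd7 (-1.10) fell.

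From RA EBs to NPCs the direction turned: 2 genes were higher and 18 lower, against 17.9% and 17.0% of all genes, with medians of -0.66 and -0.01. Both rises were ligands, Wnt7b (2.64 ± 0.18, adjusted p = 3.2e-13) and Wnt5a (1.995 ± 0.17, adjusted p = 3.7e-11). Wnt1 (-5.38), Wnt6 (-2.92, and -3.70 without DMSO) and Wnt9a (-1.90) fell, as did Sfrp5 (-4.47) and Dkk3 (-1.78). Of the receptors, 7 fell and none rose, with Fzd6 (-2.15 ± 0.28), Fzd8 (-1.95) and Fzd4 (-1.85) changing most.

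The RA branch at day 8 was also compared with EB days 6 and 9, averaged, to show what differed between branches at a like age. In RA EBs 6 genes were higher and 13 lower, against 8.11% and 10.1% of all genes, with medians of -0.43 and -0.01. All 3 R-spondins with substantial levels were lower: Rspo2 (-3.86 ± 0.37, adjusted p = 8.4e-10), Rspo3 (-3.43) and Rspo1 (-1.79). Dkk1 (-6.54 ± 0.37, adjusted p = 1.7e-14), Frzb (-1.86), Wnt8b (-5.64, and -4.87 without DMSO), Wnt3a (-1.41) and Fzd5 (-2.68) were lower, as was Wnt8a, which was at 0 in RA EBs. Wnt7a (2.50 ± 0.21), Sfrp5 (2.24), Sfrp2 (1.37), Lgr4 (1.40) and Fzd3 (1.04) were higher. The change of Fzd3 was 0.96 without BPF, short of the fold threshold.

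The rest of the pathway was described by 5 lists: co-receptors and surface regulators, secretion and extracellular modifiers, intracellular relay, feedback and target genes, and planar polarity. From EB day 4 to day 6, 9 of 11 tested secretion and extracellular modifiers rose and 0 fell (10.5% and 8.55% of all genes), among them Apcdd1 (4.54) and Wls (2.95), which carries Wnt proteins out of the cell. Cer1, a secreted inhibitor of Nodal, was at 0, 0.06, 0 and 0.01 FPKM at day 4 and 10.2, 62.5, 114 and 99.6 at day 6, with the DMSO library lowest at day 6. In the same step 8 of 17 feedback and target genes rose and 0 fell, with T (7.94), Sp8 (5.60) and Tnfrsf19 (5.15) first, while 2 of 24 relay genes rose. Axin2, a negative regulator that is a common readout of the canonical branch, was at 4.01, 3.47, 4.05 and 3.84 FPKM at EB day 4, 23.9, 17.4, 13.9 and 16.2 at day 6 and 27.9, 24.5, 19.98 and 17.2 at day 9. It rose by 2.15 ± 0.14 from day 4 to day 6 (adjusted p = 1.2e-12), and was named here after its values were seen. From RA EBs to NPCs 17.9% of all genes rose and 17.0% fell. Of 17 feedback and target genes 9 fell and 1 rose, with Sp5 the largest fall (-5.40) and Zcchc12 the rise (3.79), and 6 of 17 co-receptors and surface regulators fell, Rnf43 most (-3.10). In that step 7 of 24 relay genes rose and 2 fell. From ESCs to EB day 4, 9 of 17 feedback and target genes rose, Lef1 (3.66) and Myc (3.37) among them, and 2 fell, against 14.3% and 13.4% of all genes.

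Bisphenols were compared with DMSO to find whether treatment moved these genes. Over all 8 stages, with 1 library per treatment and stage, 1 of 42 genes was called for BPA, 5 for BPF and 3 for BPS, against 0.166%, 0.992% and 1.15% of all genes. The 3 comparisons share the DMSO libraries. Wnt2 was called higher in all 3 (adjusted p = 0.031 for BPA, 0.0026 for BPF and 0.0012 for BPS). Its DMSO libraries were listed at 0 in all stages except EB day 9, so no fold over stages is given. At EB day 9 the DMSO library held 3 or fewer counts of Wnt2, under 1 CPM. Wnt2 thus passed the count minimum only through bisphenol libraries, the group in which it was then called higher. Its calls against DMSO, here and at single stages, are therefore a description only. Rspo2 was lower with BPF (-1.19 ± 0.23, adjusted p = 0.0095) and BPS (-1.34 ± 0.23, 0.0037), and was at -1.02 ± 0.23 with BPA (adjusted p = 0.063). Wnt8b was lower with BPF (-1.30 ± 0.29, adjusted p = 0.027) and BPS (-1.52 ± 0.30, 0.011), and was at -1.19 ± 0.29 with BPA (adjusted p = 0.097). With BPF, Dkk1 was higher (1.08 ± 0.27, adjusted p = 0.05, just under the threshold before rounding) and Wnt10b lower (-1.07 ± 0.27, adjusted p = 0.048).

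These calls depended on single stages, and so did those over all genes. Calls over all genes were 26 for BPA, 155 for BPF and 179 for BPS. They were 10, 13 and 10 without EB day 9, and 7, 10 and 13 without EB day 12. The losses given here are thus not particular to the genes named. Without EB day 12 the adjusted p of Wnt2 was 0.49, 0.17 and 0.076 for BPA, BPF and BPS. Without EB day 9 that of Rspo2 was 0.21 for BPF and 0.15 for BPS, and that of Wnt8b was 0.36 and 0.22. Without EB day 9, Dkk1 and Wnt10b with BPF had adjusted p = 0.39 and 0.3. Wnt2 also lost the call for all 3 compounds without EB day 9 (adjusted p = 0.19, 0.075 and 0.093), and for BPA without EB day 6 (0.098), EB day 20 (0.072) or RA EBs (0.05, just over the threshold before rounding). Without EB day 12 the adjusted p of Rspo2 was 0.062 for BPF and 0.069 for BPS, and that of Wnt8b 0.096 and 0.056. Wnt8b lost both calls without EB day 6 as well (0.18 and 0.088). With BPF, Dkk1 was lost without EB day 6 (0.39) or EB day 12 (0.26), and Wnt10b without any 1 stage except NPCs (adjusted p 0.052 to 0.3).

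The 3 bisphenols were compared with each other at the matched dose of 100 nM over 8 stages, in 3 pairs. No gene of the 42 was called by edgeR in any pair, and none by DESeq2, against 0% of all genes for BPA with BPF, 0.0064% for BPA with BPS and 0% for BPF with BPS. At an unadjusted p under 0.05 there were 0, 5 and 1 of the 42, against 2.15%, 6.88% and 1.70% of all genes. BPA minus BPS was 0.30 for Fzd10 (95% interval 0.05 to 0.54, adjusted p = 0.64), -0.22 for Sfrp1 (-0.40 to -0.03, 0.65) and -0.15 for Fzd7 (-0.29 to -0.02, 0.66). None of these 3 passed the threshold. BPF minus BPS was -0.63 for Wnt10b (-1.19 to -0.08, adjusted p = 1), 0.50 for Wnt6 (-0.07 to 1.07) and -0.43 for Sfrp5 (-0.94 to 0.08). BPA minus BPF was 0.52 for Wnt10b (-0.04 to 1.09, adjusted p = 1), -0.12 for Fzd7 (-0.25 to 0.02) and 0.20 for Fzd10 (-0.04 to 0.45). For Rspo2, BPA minus BPF was 0.17 (-0.31 to 0.65) and BPA minus BPS 0.32 (-0.18 to 0.81), so differences of up to the ends of these intervals were not resolved between the methyl-bearing, methylene and sulfonyl bridges.

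None of the 42 genes passed between compounds, but that test averages over stages and cannot show compound differences limited to some stages. Such differences could not be tested, because no compound was repeated within a stage. The 3 bisphenol libraries of a stage were therefore treated as repeats by assumption, and any difference between compounds adds to their spread. They were set against the single DMSO library of the stage, which was assumed to vary like the others. Over all genes, calls fell without BPF or BPS and rose without BPA at EB days 6 to 20, in RA EBs and in NPCs. Losses of calls without BPF or BPS, given below, are thus not particular to the genes named. In ESCs 0 of 42 genes were called (0% of all genes; 0 by DESeq2), and 0 had an unadjusted p under 0.05, against 1.64% of all genes. The smallest p values were those of Wnt7a (0.096), Fzd1 (0.11) and Fzd8 (0.11) before adjustment. At EB day 4 also 0 were called (0.563% of all genes; 0 by DESeq2), and 3 had an unadjusted p under 0.05, against 8.60% of all genes. Nearest were Wnt11 (bisphenol to DMSO ratio 0.0471, counting interval 0.00104 to 0.367, adjusted p = 0.19), Lgr4 (-0.31, 0.26) and Fzd9 (-0.93, 0.56).

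At EB day 6, 6 genes were higher and 2 lower with bisphenols, against 1.55% and 1% of all genes. The largest change was that of Lgr5, which was at 0.56, 3.78, 6.20 and 6.33 FPKM (log2 change 3.20 ± 0.38, adjusted p = 1.4e-05). Fzd5 was at 3.42, 9.03, 18.8 and 17.3 FPKM (log2 change 2.11 ± 0.26, adjusted p = 1.7e-05). In both genes every bisphenol library lay above DMSO, and BPA lay between DMSO and the other compounds. Rspo3, an R-spondin of posterior mesoderm and the dorsal neural tube, was at 3.34, 9.18, 10.97 and 10.6 FPKM (log2 change 1.58 ± 0.23, adjusted p = 0.00013), and Dkk1 at 20.4, 39.5, 53.6 and 55.6 (log2 change 1.26 ± 0.22, adjusted p = 0.0012). Wnt8b was lower, at 6.16, 2.36, 1.51 and 1.39 FPKM (log2 change -1.82 ± 0.26, adjusted p = 0.00011), and Wnt1 changed by -1.06 ± 0.22 (adjusted p = 0.0068). Sfrp1 (0.57, adjusted p = 0.021) and Fzd7 (0.43, 0.044) were higher. Calls were lost without the BPF libraries for Sfrp1 (adjusted p = 0.29), Fzd7 (0.38), Wnt1 (0.094) and Dkk1 (0.05, just over the threshold before rounding). Without BPS, Sfrp1 (0.098) and Fzd7 (0.19) were lost. At the same stage 3 of 4 tested primitive streak markers and 3 of 6 floor plate markers were higher with bisphenols, with summed levels of 17.6, 62.8, 81.5 and 85.2 FPKM and of 36.7, 80.5, 86.9 and 89.96 FPKM, and no marker of either list was at 0 in DMSO. Their part in the changes was not tested.

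At EB day 9, 9 genes were higher and 13 lower with bisphenols, against 4.01% and 3.48% of all genes, with a median log2 change of -0.29 (0.00 over all genes). All 3 R-spondins that had a substantial level fell. Rspo3 was at 17.97, 5.43, 4.42 and 4.73 FPKM (log2 change -1.90 ± 0.19, adjusted p = 3.4e-07), the opposite direction to day 6. Rspo2 was at 15.3, 4.04, 3.15 and 3.25 (log2 change -2.14 ± 0.26, adjusted p = 1.4e-05) and Rspo1 at 20.7, 7.78, 5.83 and 5.87 (log2 change -1.68 ± 0.24, adjusted p = 4.3e-05). The DMSO library lay above all bisphenol libraries in each of them, and the bisphenol libraries were close together. Summed over the 4 R-spondins the levels were 54.9, 17.8, 13.6 and 14.1 FPKM.

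Of the ligands at EB day 9, 6 were lower and 1 higher. Wnt8b was at 11.2, 2.56, 1.88 and 1.42 FPKM (log2 change -2.52 ± 0.25, adjusted p = 3.4e-07), Wnt3a at 5.04, 2.47, 1.65 and 1.35 (log2 change -1.47 ± 0.34, adjusted p = 0.007) and Wnt3 at 5.13, 2.74, 1.87 and 2.29 (log2 change -1.17 ± 0.25, adjusted p = 0.003). DMSO was the highest library in all 3. Wnt4 changed by -0.92 ± 0.20 (adjusted p = 0.0036). Dkk1 stayed higher than DMSO (log2 change 1.09 ± 0.22, adjusted p = 0.0024). Among receptors, Fzd4 was at 1.59, 3.33, 5.47 and 7.95 FPKM (log2 change 1.77 ± 0.40, adjusted p = 0.0052) and Fzd10 at 19.95, 13.9, 10.9 and 9.26 (log2 change -0.83 ± 0.19, adjusted p = 0.0055). Without the BPF libraries Fzd4 (adjusted p = 0.075), Fzd10 (0.099), Wnt3 (0.086) and Wnt4 (0.084) lost the call. The other 12 called genes are named here after their values were seen. Wnt7a, Wnt1, Sfrp2, Fzd9 and Fzd3 were lower by log2 changes of -0.46 to -0.87, and Wnt2, Dkk3, Wif1, Fzd7, Fzd2, Fzd6 and Fzd1 were higher. Wnt2 was 13.2-fold higher (counting interval 3.54 to 111), from 3 or fewer counts in DMSO. Of these 12, all except Fzd2 lost the call without the BPF libraries, with adjusted p between 0.061 and 0.22. Without the BPS libraries 10 of the 12, all except Fzd2 and Dkk3, lost it, with adjusted p between 0.055 and 0.16.

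At EB day 12, 10 genes were higher and 13 lower, against 10.1% and 8.79% of all genes, with medians of 0.01 and -0.05. Of the 22 genes called at day 9, 17 were called again at day 12, all in the same direction. Of the antagonists, 5 of 9 tested were higher and 1 lower. Dkk2 was at 0.34, 3.27, 3.66 and 2.97 FPKM (log2 change 3.13 ± 0.43, adjusted p = 7.2e-06), Dkk1 at 0.83, 5.48, 6.63 and 4.45 (log2 change 2.62 ± 0.41, adjusted p = 4.3e-05) and Wif1 at 0.44, 2.57, 2.36 and 2.86 (log2 change 2.41 ± 0.42, adjusted p = 0.00018). Dkk3 was at 12.9, 25.4, 24.8 and 20.2 FPKM (log2 change 0.82 ± 0.14, adjusted p = 9.9e-05). For these 4 genes each bisphenol library lay above DMSO without overlap. All 4 R-spondins were lower, with Rspo3 at 9.99, 2.58, 4.11 and 3.10 FPKM (log2 change -1.64 ± 0.20, adjusted p = 1.6e-06) and Rspo1 at 15.3, 6.13, 6.55 and 6.15 (log2 change -1.32 ± 0.24, adjusted p = 0.00035).

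Wnt3 was at 11.1, 5.39, 4.80 and 5.67 FPKM at this stage (log2 change -1.11 ± 0.23, adjusted p = 0.0009). Wnt2, not listed in the DMSO library and taken as 0 counts, was at least 11.1-fold higher over the bisphenol libraries, against a floor of 3 counts, which covers counting error only. Receptor Fzd6, which acts in hair and tissue polarity, was at 1.48, 4.43, 4.19 and 4.07 FPKM (log2 change 1.46 ± 0.21, adjusted p = 2e-05), and Fzd10 at 35.2, 20.03, 19.03 and 22.3 (log2 change -0.82 ± 0.18, adjusted p = 0.0015). DMSO was the lowest library for Fzd6 and the highest for Fzd10. The other 13 called genes, named after their values were seen, were Rspo2, Rspo4, Wnt3a, Wnt7a, Wnt7b, Wnt8b, Sfrp2, Fzd3 and Fzd9, lower, and Wnt6, Wnt11, Sfrp1 and Fzd4, higher. Of them, Fzd4 (adjusted p = 0.14), Sfrp1 (0.18), Wnt3a (0.14), Wnt6 (0.052), Wnt7b (0.054) and Wnt8b (0.062) lost the call without BPF. Without BPS, Fzd4 (0.079), Sfrp1 (0.09) and Rspo2 (0.07) did.

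At EB day 20, 10 genes were higher and 4 lower, against 9.14% and 10.5% of all genes, with medians of 0.05 and -0.06. Dkk2 was at 0.93, 8, 7.60 and 6.49 FPKM (log2 change 2.90 ± 0.36, adjusted p = 2.3e-06), Wif1 at 2.52, 6.86, 7 and 5.75 (log2 change 1.30 ± 0.32, adjusted p = 0.0046) and Sfrp1 at 13.7, 22.4, 24.9 and 24.6 (log2 change 0.75 ± 0.15, adjusted p = 0.00071). Of 17 ligands 5 were higher and 1 lower. Wnt5b was at 2.12, 8.48, 7.46 and 8.23 FPKM (log2 change 1.77 ± 0.29, adjusted p = 9.7e-05), Wnt9a at 2.13, 6.39, 6.76 and 5.22 (log2 change 1.45 ± 0.25, adjusted p = 0.00016) and Wnt5a at 6.17, 11.8, 12.6 and 11.7 (log2 change 0.91 ± 0.15, adjusted p = 0.00013). In these 6 genes all 3 bisphenol libraries lay above DMSO. Wnt4 was higher (log2 change 0.89 ± 0.20, adjusted p = 0.0026), the opposite of day 9. Receptors Fzd6, at 2.36, 5.75, 6.46 and 5.02 FPKM (log2 change 1.22 ± 0.20, adjusted p = 7.7e-05), and Fzd2, at 5.59, 9.86, 11.6 and 13.2 (log2 change 0.99 ± 0.19, adjusted p = 0.00066), were higher, and Rspo3 was lower, at 4.85, 1.70, 2.43 and 2.38 (log2 change -1.20 ± 0.23, adjusted p = 0.00047). The other 4 called, named after their values were seen, were Wnt6 (higher) and Wnt3, Sfrp4 and Fzd1 (lower). Without BPF, Wif1 (adjusted p = 0.056), Wnt6 (0.19), Wnt3 (0.13), Sfrp4 (0.075) and Fzd1 (0.18) lost the call.

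**Figure D3:**
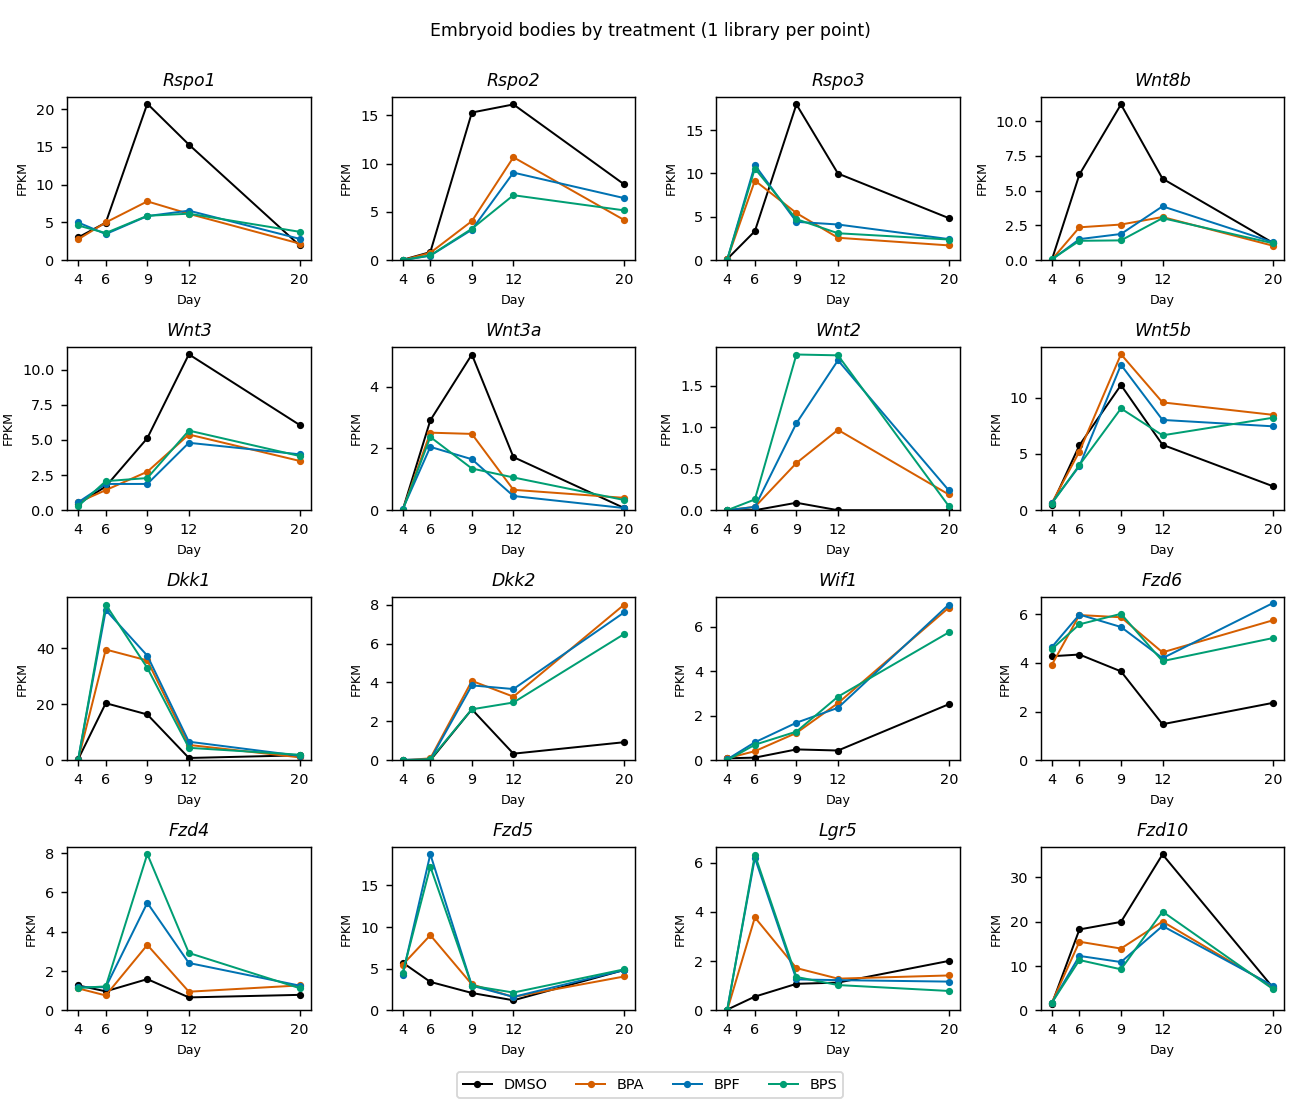
FPKM of 16 genes in EBs against day, 1 library per point, coloured by treatment. The DMSO line of Rspo3 lies below the bisphenol lines at day 6 and above them from day 9, and the DMSO lines of Dkk2 and Wif1 are the lowest at days 12 and 20.

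Marker lists moved with treatment at the same stages, and their part in the changes was not tested. The summed level of 7 mesenchyme and fibroblast genes was 41.01, 130.3, 167 and 185 FPKM at EB day 9, 28.7, 372, 402 and 394 at day 12 and 109.6, 968, 1060.0 and 1054 at day 20. Of these 7, 6, 7 and 6 were called higher with bisphenols at days 9, 12 and 20. Among all genes, 4.01%, 10.1% and 9.14% were called higher at these days, and 3.48%, 8.79% and 10.5% lower. Cardiac genes were at 2.36, 28.2, 102 and 260.0 FPKM at day 12 (5 of 6 higher) and endothelial genes at 2.74, 12.4, 18.1 and 28.01 (5 of 6 higher). Neural progenitor genes were at 326, 232, 221 and 194 FPKM at day 9 (5 of 6 lower) and 763, 573, 498 and 491 at day 12 (6 of 6 lower). At day 20 they were at 271, 374, 313 and 328, lowest in DMSO, with 2 of 6 higher and 1 lower. Cardiac genes were at 7.48, 11.1, 29.7 and 72 at day 20 (0 of 6 called) and endothelial genes at 7.79, 13.2, 15.2 and 16.8 (2 of 6 higher). No marker of these lists was at 0 in the DMSO libraries of days 9 and 12, and Tie1 was at day 20.

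**Figure D4:**
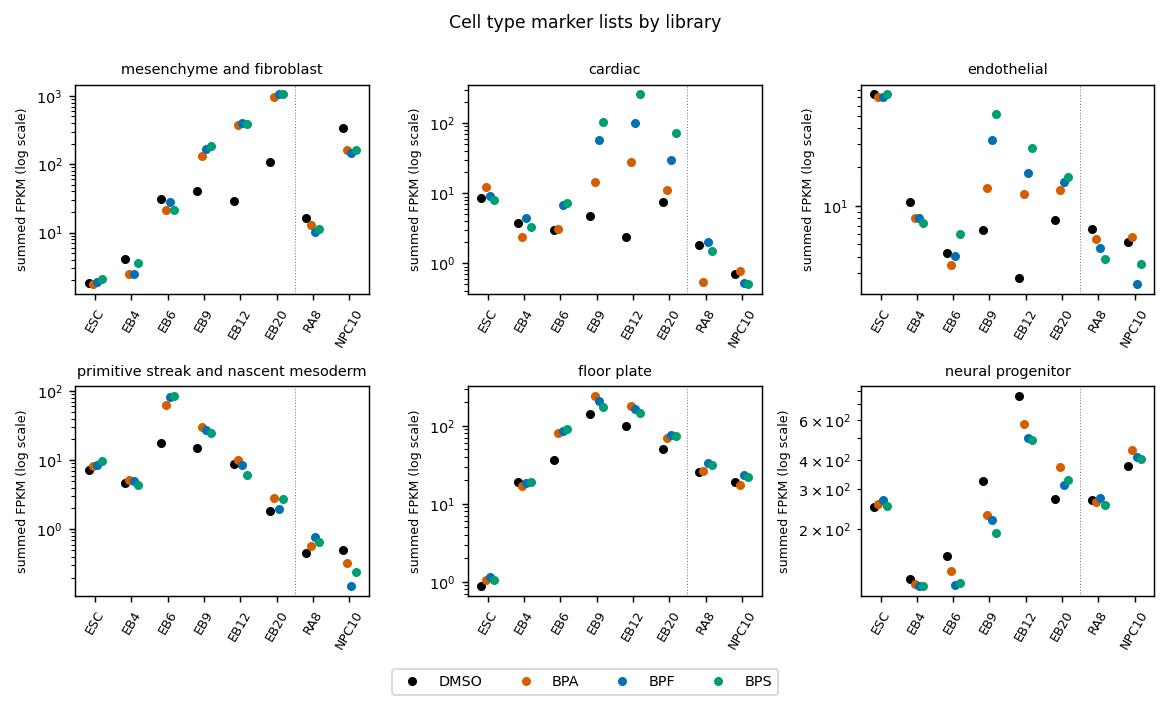
Summed FPKM of 6 marker lists by library on a log axis, stages along the x axis, colours for treatments. Mesenchyme genes in the DMSO library are at 28.7 FPKM at EB day 12, below the bisphenol libraries at 371.9 to 402.2.

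On the neural branch few of the genes were called with bisphenols, and few of all genes tested were. In RA EBs 0 of 42 were called by edgeR, against 2.34% of all genes, and 0 by DESeq2. At an unadjusted p under 0.05 there were 5 of the 42, against 16.5% of all genes. Fzd1 (-0.56 ± 0.21, adjusted p = 0.16), Frzb (-0.57 ± 0.21, 0.16) and Sfrp2 (-0.35 ± 0.14, 0.19) were nearest and did not pass. In NPCs 1 of 42 was called, against 2.25% of all genes. Fzd6 was at 1.66, 0.78, 0.59 and 1.09 FPKM (log2 change -1.001 ± 0.24, adjusted p = 0.019), lowest with BPF and highest in DMSO, the opposite direction to EB days 9 to 20. Wnt7a (0.65 ± 0.22, adjusted p = 0.16) and Wnt6 (-1.78 ± 0.62, 0.17) did not pass. Fzd6 lost the call without BPA (adjusted p = 0.074) or BPF (0.18). In NPCs the 7 mesenchyme genes were at 343, 164, 146 and 163 FPKM, with 4 of 7 lower in bisphenols, and their part in the Fzd6 value was not tested.

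Averaged over EB days 6, 9, 12 and 20, 16 of the 42 genes were higher and 12 lower with bisphenols, against 13.4% and 12.8% of all genes, with medians of 0.00 and -0.02. Of the 42, 34 were called at 1 or more of the 4 stages taken singly, against 33.4% of all genes. Antagonists were mostly higher (6 of 9 tested, 1 lower), with Wif1 (1.79 ± 0.22, adjusted p = 8.2e-07), Dkk1 (1.18 ± 0.16, 5.4e-06), Dkk2 (2.07 ± 0.33, 3.5e-05) and Sfrp1 (0.39 ± 0.07, 0.00016) higher. R-spondins were lower in 3 of 4, with Rspo3 (-0.79 ± 0.11, adjusted p = 3.3e-06, and -1.58 without EB day 6) and Rspo2 (-1.06 ± 0.17, 5.8e-05) first. Ligands were divided, 4 higher and 5 lower of 17, with Wnt8b (-1.33 ± 0.14, adjusted p = 1.1e-07) and Wnt3 (-0.74 ± 0.13, 0.0001) lower. Receptors were higher in 6 and lower in 3 of 12, with Fzd6 higher (0.93 ± 0.10, adjusted p = 5.1e-08) and Fzd3 lower (-0.35 ± 0.06, 0.00013).

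Lgr5 was called higher over the 4 stages (log2 change 0.69 ± 0.18, adjusted p = 0.0054), and this rested on EB day 6: without it the log2 change was -0.15 (adjusted p = 0.62). Lgr5 is named here after its values were seen. Over RA EBs and NPCs, 1 of 42 was called, against 1.29% of all genes: Fzd6 was lower (log2 change -0.61 ± 0.15, adjusted p = 0.033), and lost the call without BPA (adjusted p = 0.061) or BPF (0.25). Fzd1 (-0.53 ± 0.14, adjusted p = 0.057) and Wnt9a (-0.55 ± 0.20, 0.18) did not pass.

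The difference between branches was itself tested, as the bisphenol effect of EB days 6 to 20 minus that of RA EBs and NPCs. Of the 42 genes, 14 differed, against 16.5% of all genes, 10 towards higher and 4 towards lower values in EBs. Fzd6 differed most firmly (1.54 ± 0.18, adjusted p = 7.1e-07), followed by Sfrp1 (0.56 ± 0.12, 0.0017) and Dkk2 (2.28 ± 0.50, 0.0022). Fzd4 (1.50), Fzd1 (0.71), Fzd2 (0.51), Fzd5 (1.21), Wnt6 (1.54), Wnt9a (0.78) and Wnt7a (-0.90) also differed. Without BPF, Fzd4 (adjusted p = 0.067), Fzd1 (0.051), Fzd5 (0.067), Wnt9a (0.09) and Wnt7a (0.083) lost the call, and without BPS Fzd5 (0.079) and Wnt7a (0.063) did. The R-spondins and Dkk1, at low levels in the neural branch, were not called in this test.

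**Figure D5:**
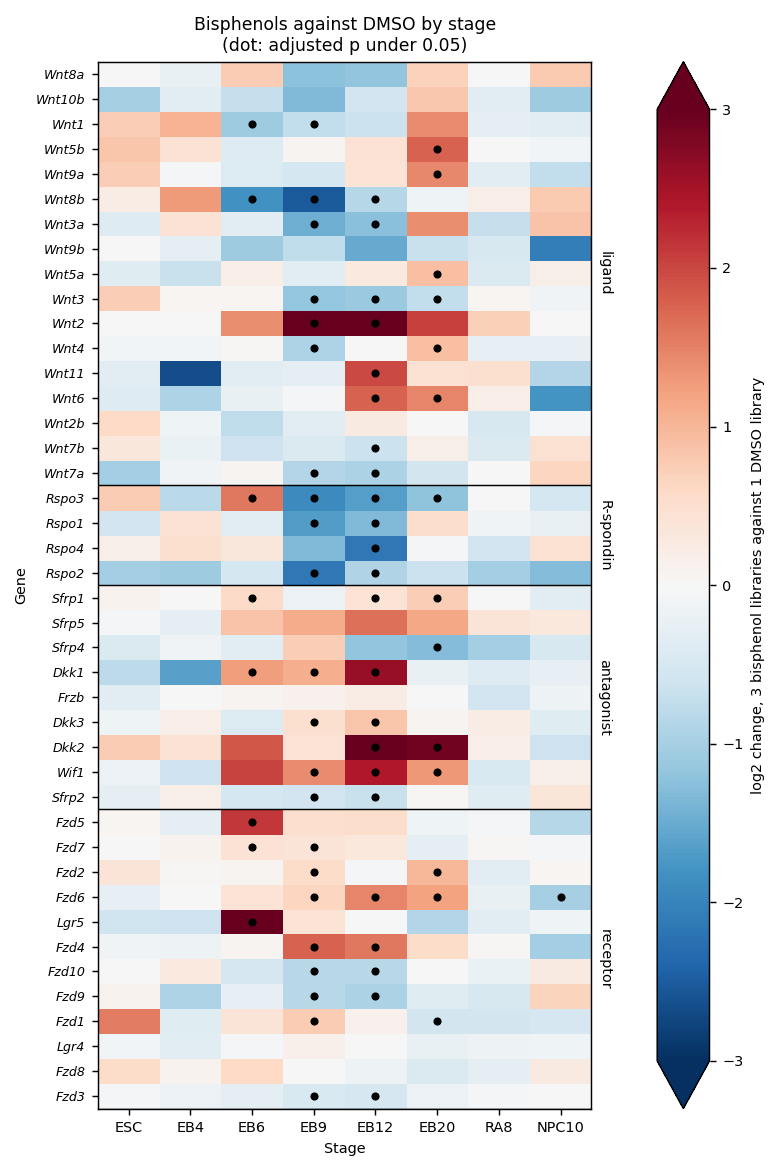
Log2 change of the 42 tested genes, 3 bisphenol libraries against 1 DMSO library, with genes in rows by class and stages in columns (colour from -3 to 3, dots for an adjusted p under 0.05). Dots number 0 in ESCs, at EB day 4 and in RA EBs, 22 at EB day 9, 23 at day 12 and 1 in NPCs.

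The same 5 lists were read for bisphenols over EB days 6 to 20, where 13.4% of all genes were higher and 12.8% lower. In EBs 11 of 17 co-receptors and surface regulators were higher and 0 lower, among them Adgra2 (1.91 ± 0.13), Ror1 (1.13 ± 0.18), a receptor for Wnt5a, and Gpc3 (0.87 ± 0.09). Of the feedback and target genes, 7 of 17 were higher, T first (1.30 ± 0.32), and 5 lower. Axin2 was lower on this mean (-0.31 ± 0.06, adjusted p = 0.00074), and was named after its values were seen. It was at 23.9, 17.4, 13.9 and 16.2 FPKM at EB day 6 and 27.9, 24.5, 19.98 and 17.2 at day 9. At day 12 it was at 23.9, 18.96, 17.55 and 17.62, so DMSO was highest at these days. The direction was reversed at day 20, at 9.86, 12.3, 12.3 and 12.4, with DMSO lowest. Secretion and extracellular modifiers were higher in 5 and lower in 1 of 11, with Sostdc1 (1.35) and Igfbp4 (0.85) higher and Draxin (-0.78) lower. Relay genes were higher in 3 of 24, near the share of all genes, and lower in 6, and planar polarity genes higher in 6 and lower in 4 of 15. Over RA EBs and NPCs, where 1.29% of all genes were called, 3 of 17 co-receptors and surface regulators were lower (Ror2 -0.70, Adgra2 -0.70 and Gpc4 -0.51) and no gene of the other lists was called.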

How the data were processed

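RNA-seq of 32 libraries was used. Per the submitters' processing notes, Bowtie2, HISAT, RSEM and the build mm10 were used; versions and roles are not given in the sources used here. The deposited tables hold the authors' expected counts (estimated, not all whole) and FPKM per gene, and do not list genes under 0.01 FPKM. Expected counts were rounded to whole numbers and tested with edgeR 4.0.16 (quasi-likelihood, TMM scaling, prior count 1) in R 4.3.3, over genes with 1 CPM or more in at least 4 libraries. Stages, and compounds over 8 stages, were fitted with stage and treatment terms (21 residual degrees of freedom); bisphenols within stages were fitted with stage and bisphenol-by-stage terms (16). P-values were adjusted by Benjamini-Hochberg over all genes tested. Alternatives used DESeq2 1.42.0, limma 3.58.1 on log2(FPKM + 1) and log2(FPKM + 0.1), other scalings and filters, and left-out libraries.

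On data simulated for the EB day 6 to 9 comparison, 36% of genes changed by a log2 of 1 and 96% of those changed by 2 were recovered, with 1 unchanged gene called among 15632 genes. For bisphenols at EB day 12 these were 25% and 83%, with 5, and for BPA over 8 stages 97% and 100%, with 9. Genes were simulated at their mean over all libraries, with a fixed spread not estimated from these data. The simulated BPA effect was the same at every stage, so its rates do not cover effects limited to some stages. Recovery of a log2 of 1 between stages was limited by the fold threshold itself (median estimate 0.933). Counting intervals and floors cover counting error only. Genes were named by a rule: the highest stage means of each class, the largest called changes of each class and stage step, and the 10 smallest p of each treatment comparison. The members and lists were chosen with earlier results of these data known.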

Additional observations from a re-analysis of the deposited data

Results flagged for a closer look

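The 39 genes whose highest stage mean was at least 1 FPKM were each examined over the 4 libraries of that stage, which differ in treatment. For 3 of the 39 genes, 1 library lay far from the others. The nominal rate of the rule, about 1 in 20 groups, does not hold here. The stage was chosen by its highest mean, which 1 high library raises, and the 4 libraries are not replicates. The 3 cases are therefore a description only. All 3 were DMSO libraries. Wnt3 was at 11.1 FPKM in DMSO at EB day 12, with the others at 4.80 to 5.67. Wnt8b was at 11.2 FPKM in DMSO at EB day 9, with the others at 1.42 to 2.56. Rspo1 was at 20.71 FPKM in DMSO at EB day 9, with the others at 5.83 to 7.78.

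In 14 genes the bisphenol effect of EB days 6 to 20 differed from that of RA EBs and NPCs by the edgeR test of the difference, against 16.5% of all genes. The log2 differences were 1.54 for Fzd6, 0.56 for Sfrp1, 2.28 for Dkk2, 1.50 for Fzd4, 0.71 for Fzd1, 0.51 for Fzd2, 1.21 for Fzd5, 1.54 for Wnt6 and 0.78 for Wnt9a. It was 0.91 for Lgr5, and was negative for Wnt7a (-0.90), Fzd10 (-0.58), Sfrp2 (-0.43) and Fzd3 (-0.34). Without BPF, Lgr5 (adjusted p = 0.16), Fzd10 (0.13), Sfrp2 (0.2) and Fzd3 (0.14) did not pass, and without BPS Sfrp2 (0.084) and Fzd3 (0.078) did not.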

How the results depend on the processing

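Of 293 called values of the genes, 292 kept direction and call under RLE size factors, 289 without a filter, 253 of 255 with a filter of 5 CPM, 273 under DESeq2, 246 under limma on log2(FPKM + 0.1) and 205 under limma on log2(FPKM + 1). Leaving out a treatment or stage kept 1053 of 1209 and turned 1, Lgr5 over EB days 6 to 20 (log2 change -0.151 without EB day 6, from 0.688, and up to 1.209 without EB day 20). Leaving out EB stages from that mean was chosen after seeing the data.

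With limma on log2(FPKM + 1), which compresses low genes, the called genes numbered 14 (ESC to EB day 4), 17 (EB day 4 to 6), 12 (6 to 9), 3 (9 to 12), 9 (12 to 20), 20 (EB day 4 to RA EBs) and 12 (RA EBs against EB days 6 and 9). Over all 15632 genes the calls were 2371, 1266, 913, 601, 2636, 3174 and 1277, in the same order. By adjusted p alone the called genes of the 42 tested numbered 18 (EB day 9 to 12), 30 (12 to 20) and 31 (RA EBs against EBs). Over all 15632 genes the calls were 6425, 10662 and 9464. The counts for EB day 9 to 12 and 12 to 20 were thus near the share of all genes. For BPA (1 called) DESeq2, the 5 CPM filter and both limma settings gave 0, and leaving out stages 0 to 4. Over all genes DESeq2 gave 13, the 5 CPM filter 19, both limma settings 0, and leaving out stages 7 to 119. For BPF (5) DESeq2 gave 1, the 5 CPM filter 2, both limma settings 0, and leaving out stages 0 to 9. Over all genes these were 90, 96, 0 and 1 for the limma settings, and 10 to 565. For BPS (3) both limma settings gave 0, and leaving out stages 0 to 12. Over all genes these were 0, and 10 to 746. Leaving out a bisphenol gave 4 to 13 at EB day 6, 7 to 26 at EB day 9, 9 to 17 at EB day 20, 0 to 1 in RA EBs, 0 to 4 in NPCs, 0 to 2 over RA EBs and NPCs and 5 to 20 for the branch difference. At EB day 9 limma on log2(FPKM + 0.1) gave 10, in NPCs limma on log2(FPKM + 1) gave 2, and over RA EBs and NPCs DESeq2 and no filter gave 2 each. Calls over all genes moved too in these tests of pooled bisphenols: fewer without BPF or BPS, and more without BPA. They were also fewer at EB day 9 with that limma setting. In NPCs, and over RA EBs and NPCs, they were more with the alternatives named. Except where construction shows it, the cause was not tested.

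No paired analysis was possible because the libraries of a group were not repeated and carry no replicate numbers. The comparisons over 8 stages, compounds among them, already hold the stage as a term. Leaving out DMSO was not possible for tests against DMSO. Genes under about 1 FPKM rest on few counts, which limits their folds.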
